A study of Homo sapiens with 12 samples.

Results

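Genome expression in the untreated parental SK-N-SH line (WT) was set against that of the 3 lines derived from it under drug, namely WT-v, DoxR and DoxR-v. The question was which transcripts parted the untreated line from every line that had received a drug. The contrast was the mean of the 3 drug-exposed groups, with equal weights, minus WT, on normalized log2 levels over all 12 arrays. The genes described are those that passed the test of this contrast and whose 3 WT arrays lay all above or all below the 9 other arrays. They numbered 1271 of 12093 genes tested (10.5%), of which 623 were higher (5.15%) and 648 were lower (5.36%) in the drug-exposed lines.

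SK-N-SH is a human neuroblastoma line derived from bone marrow and was grown in DMEM/F12 with fetal bovine serum. WT-v was the parental line exposed intermittently to the histone deacetylase inhibitor vorinostat (SAHA) alone. DoxR was selected for resistance in stepwise increasing doxorubicin. DoxR-v was selected in the same way and was also exposed to vorinostat, at its IC25, at each logarithmic increase of the doxorubicin dose. WT received neither agent. Each group was 1 line with 3 arrays. The sources describe triplicate RNA specimens and do not say that they came from separate cultures, so the p-values measure only the spread between these samples, which may be technical. Any gene that sets WT apart rests on 1 untreated line. A drug exposure common to the 3 derived lines, the time in culture that went with it and a peculiarity of the WT culture itself therefore cannot be told apart.

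Doxorubicin is an anthracycline that intercalates into DNA and traps topoisomerase II, and vorinostat blocks the zinc-dependent histone deacetylases, which alters chromatin acetylation and transcription. Neuroblastoma arises from the sympathetic lineage. SK-N-SH is known as a mixed line, in which neuroblast-like cells with adrenergic genes grow beside flat, substrate-adherent cells with mesenchymal genes. In such bulk RNA, fewer cells of a type and less RNA per cell cannot be told apart.

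Between 15434 and 17220 probes were detected per drug-exposed array and between 14969 and 16233 per WT array. Arrays within a group correlated at r of 0.982 to 0.992, and arrays of different groups at 0.936 to 0.971. Endothelial markers had no member measured, and of the haematopoietic and Schwann or glial lists 1 member each was measured, both called higher with overlap. CD34 averaged 4.82 in WT-v, 6.50 in DoxR, 4.86 in DoxR-v and 4.72 in WT, and ERBB3 4.59 in WT-v, 5.85 in DoxR, 5.77 in DoxR-v and 4.54 in WT. Their part in the other results was not tested. The neuronal marker STMN2 was bright in all groups (13.74 in WT-v, 13.43 in DoxR, 13.05 in DoxR-v and 13.51 in WT).

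The joint contrast called 4055 of 21609 probes (18.8%) where a call needed a fold change over 1.5 and a Benjamini-Hochberg adjusted p under 0.1. Of these, 2098 were higher (9.71%) and 1957 lower (9.06%). At the level of genes, with the brightest tested probe for each, 2497 were called (20.6%), 1308 higher (10.8%) and 1189 lower (9.83%) in the drug-exposed lines. The median size of the difference was 0.89 on the log2 scale among the 623 higher genes that did not overlap WT and 0.91 among the 648 lower ones. A fold change above 4 was reached by 36 of the higher (5.78%) and 46 of the lower genes (7.1%). In 62 of the higher genes (9.95%) the probe was detected on all 9 drug-exposed arrays and on no WT array. In 21 of the lower genes (3.24%) the reverse held. These shares were not counted over all genes, so nothing is read from their size.

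The 3 drug-exposed lines were each also compared with WT, with the same 3 WT arrays in every comparison. WT-v vs WT called 3180 genes (26.3%, and 24.8% of probes), DoxR vs WT 4005 (33.1%, and 29.7% of probes) and DoxR-v vs WT 2951 (24.4%, and 22.3% of probes). Of the 623 higher genes, 340 were called higher in all 3 lines (54.6%, against 3.16% of all genes), and of the 648 lower genes, 362 were called lower in all 3 (55.9%, against 3.33%). The non-overlap rule already placed these genes on 1 side of WT, so nothing is read from these shares. Whether or not they were called, 6.43% of probes lay higher and 5.97% lower than WT in all 9 drug-exposed arrays. DoxR was the line farthest from WT in 288 of the higher (46.2%) and 288 of the lower genes (44.4%). The same share was not counted over all genes, of which DoxR vs WT also called the most (33.1%), so nothing is read from it.

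Membership at the border was a matter of small distances. Just inside it, NDNF, a secreted neurotrophic factor, lay above WT by a gap of 0.001 on the log2 scale, and EMILIN2, an elastin-associated glycoprotein, lay below WT by 0.002. Just outside it, the WT arrays overlapped the others by less than 0.001 for TRAPPC14, a vesicle-transport subunit, and by 0.001 for POLR1E, a subunit of RNA polymerase I. At the far end, the gap reached 3.47 among the higher genes, for MECOM, and 2.96 among the lower genes, for CD24.

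The same count was made for every group against the other 3. Called and not overlapping were 1936 probes for WT-v (8.96%), 3274 for DoxR (15.2%), 1659 for DoxR-v (7.68%) and 1933 for WT (8.95%). No test was made of these counts, and their order depended on the processing. Under median scaling they were 2086 for WT-v, 2801 for DoxR, 1989 for DoxR-v and 2843 for WT. Without WT replicate 3 they were 2158 for WT-v, 3375 for DoxR, 1760 for DoxR-v and 3663 for WT.

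**Figure D1:**
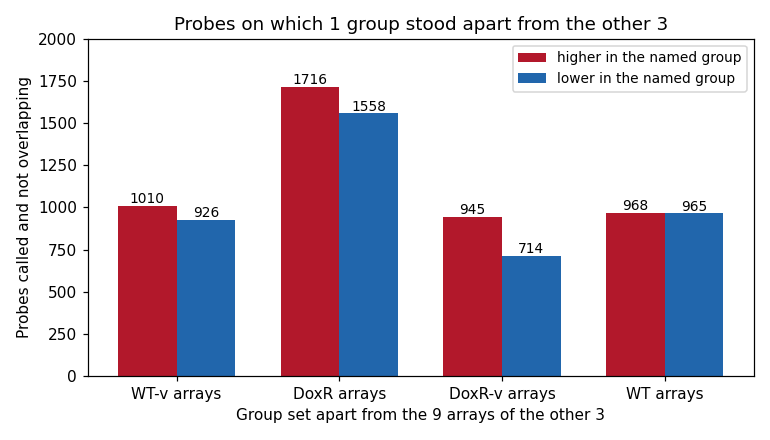
Number of probes (y axis) that were called and on which all 3 arrays of the group named on the x axis lay above (red) or below (blue) the 9 arrays of the other 3 groups. The WT bars (968 higher and 965 lower in WT) are close in height to those of WT-v (1010 and 926), and the DoxR bars are the tallest (1716 and 1558).

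The 3 WT arrays did not count equally. WT replicate 3 lay closest of the WT arrays to the drug-exposed ones in 727 of the 1271 genes (57.2%), with a median distance of 0.80 on the log2 scale against 0.96 for each of the other WT arrays. Without it, 3663 probes were called and not overlapping, against 1933 with all arrays, and the joint contrast called 5441 probes. Without WT replicate 1 the first count was 2200, and without WT replicate 2 it was 2109. With 2 arrays left in WT, non-overlap is also easier to reach.

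Among the genes higher in the drug-exposed lines without overlap, the largest difference was that of GRIN1, which encodes the obligatory subunit of NMDA receptors. Its level was 8.15, 7.78 and 8.31 in WT-v, 10.31, 10.17 and 10.29 in DoxR, 10.44, 10.53 and 10.14 in DoxR-v, and 4.58, 4.68 and 4.97 in WT. GRIN1 was detected on all 9 drug-exposed arrays and on no WT array, and was at least 17.9-fold higher (log2 4.83, SE 0.13, adjusted p = 2.42e-10). Neither of the 2 other GRIN1 probes was called. For the bound, only groups in which the probe was detected on no array were changed. Each of their arrays was raised to the dimmest level that counted as detected on it, unless the probe itself read higher. Groups with any detection kept their mean. The mean of the drug-exposed groups was then compared with that of WT. NPY, a peptide co-released with noradrenaline by sympathetic neurons, was bright in all groups and was measured at 11.05, 11.47 and 10.99 in WT-v, 12.85, 12.83 and 12.92 in DoxR, 13.53, 13.42 and 13.49 in DoxR-v, and 8.35, 9.24 and 8.47 in WT. NPY was 14.1-fold higher in the drug-exposed lines (log2 3.82, SE 0.17, adjusted p = 5.65e-09), least so in WT-v. NTNG1, a membrane-anchored netrin of growing axons, had levels of 7.50, 7.70 and 7.65 in WT-v, 8.43, 8.39 and 8.47 in DoxR, 7.60, 6.91 and 7.29 in DoxR-v, and 5.01, 4.72 and 5.84 in WT, a 5.98-fold difference (log2 2.58, SE 0.20, adjusted p = 7.34e-07).

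Higher genes with roles in shape, adhesion and matrix included VIM, the intermediate filament of mesenchymal cells. VIM was measured at 11.74, 11.50 and 11.75 in WT-v, 13.09, 13.20 and 12.99 in DoxR, 11.60, 11.14 and 11.06 in DoxR-v, and 8.91, 9.12 and 9.12 in WT. The groups were far apart, with the highest WT array at 9.12 and the lowest drug-exposed array at 11.06, a 7.78-fold difference (log2 2.96, SE 0.13, adjusted p = 4.52e-09). NECTIN3, a cell adhesion protein, was not detected in WT. Its level was 7.13, 7.18 and 6.78 in WT-v, 7.91, 7.58 and 7.76 in DoxR, 7.98, 8.24 and 7.87 in DoxR-v, and 4.57, 4.60 and 4.58 in WT, at least 4.57-fold higher in the drug-exposed lines. IGFBP3, which binds insulin-like growth factors, had levels of 9.25, 9.31 and 9.36 in WT-v, 8.74, 8.86 and 8.80 in DoxR, 7.38, 6.70 and 6.76 in DoxR-v, and 4.62, 5.20 and 5.17 in WT. It was detected on no WT array, and was at least 7.68-fold higher (log2 3.36, SE 0.16, adjusted p = 8.08e-09), with DoxR-v the nearest line to WT.

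MECOM, a zinc-finger transcription factor, had levels of 8.55, 8.61 and 8.63 in WT-v, 10.55, 10.29 and 10.10 in DoxR, 9.27, 9.75 and 8.76 in DoxR-v, and 5.08, 4.55 and 5.07 in WT. The bound was 15.8-fold (log2 4.49, SE 0.18, adjusted p = 3.09e-09), and neither of the 2 other MECOM probes was called. The ankyrin-repeat gene SOWAHC was narrowly spread within each group, at 7.17, 7.18 and 6.94 in WT-v, 7.85, 7.59 and 7.68 in DoxR, 7.48, 7.48 and 7.55 in DoxR-v, and 4.40, 4.31 and 4.40 in WT, and was at least 4.07-fold higher. KCNAB1, an auxiliary subunit of voltage-gated potassium channels, averaged 10.88 in WT-v, 10.61 in DoxR, 11.11 in DoxR-v and 8.30 in WT (log2 2.57, SE 0.15, adjusted p = 7.22e-08). Both tested probes of VIM, NECTIN3, IGFBP3, KCNAB1 and NTNG1 were called in this direction.

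**Figure D2:**
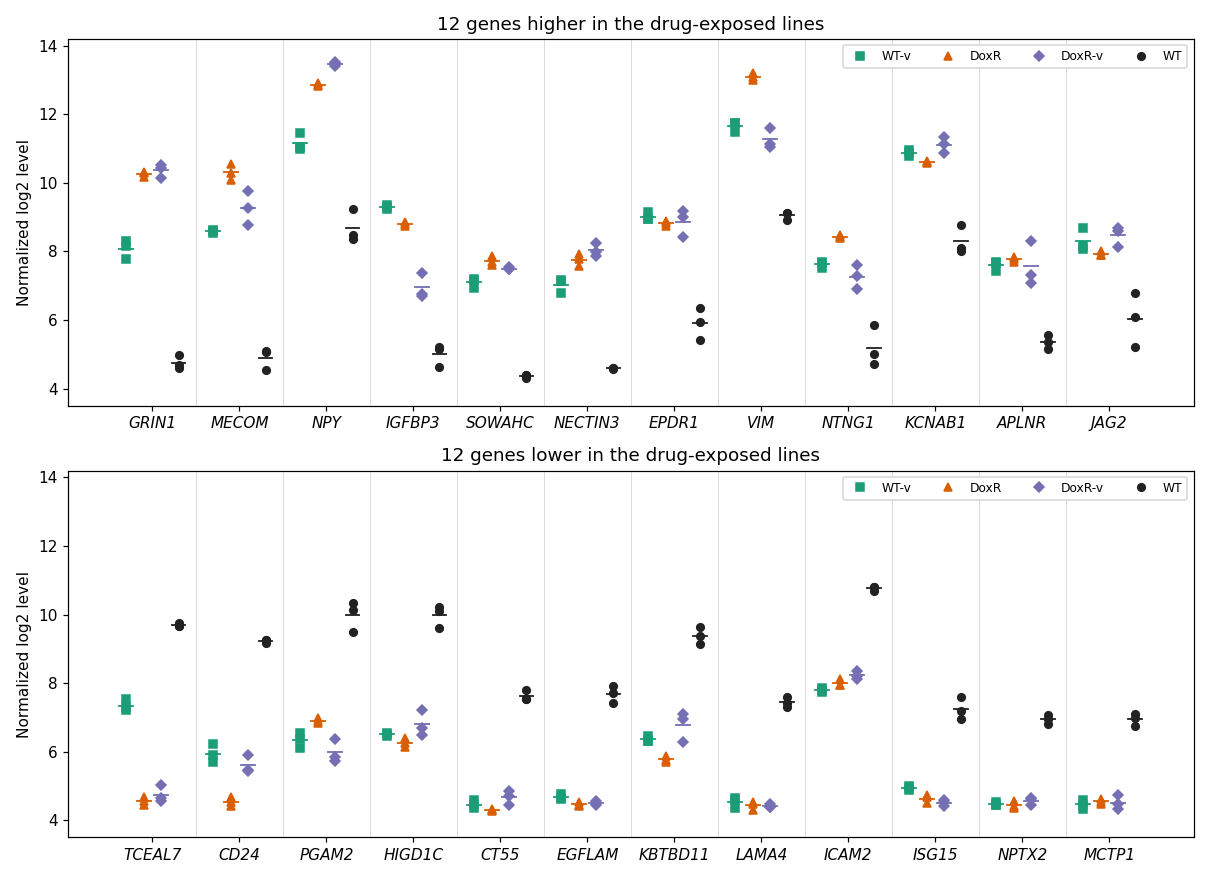
Normalized log2 level (y axis) of 12 genes higher (top) and 12 genes lower (bottom) in the drug-exposed lines, with 1 symbol per array, a bar at each group mean and the groups WT-v, DoxR, DoxR-v and WT from left to right within each gene. All black WT symbols lie on one side of the 9 others for every gene, while the 3 drug-exposed groups spread over more than 2 log2 units for GRIN1, NPY and TCEAL7 and lie close together for EPDR1, LAMA4 and EGFLAM.

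Among the genes lower in every drug-exposed line, TCEAL7, an X-linked member of the transcription elongation factor A-like family, had the largest difference. It was measured at 7.29, 7.53 and 7.21 in WT-v, 4.46, 4.56 and 4.68 in DoxR, 4.66, 5.03 and 4.57 in DoxR-v, and 9.76, 9.68 and 9.66 in WT. TCEAL7 was detected in WT-v and WT only, and was at least 13.2-fold lower (log2 -4.14, SE 0.12, adjusted p = 2.42e-10). CD24, a small surface glycoprotein of neural and other progenitor cells, had levels of 5.71, 5.92 and 6.22 in WT-v, 4.53, 4.42 and 4.68 in DoxR, 5.91, 5.48 and 5.43 in DoxR-v, and 9.27, 9.18 and 9.27 in WT. The lowest WT array lay 2.96 above the nearest drug-exposed array, and CD24 was at least 12.4-fold lower (log2 -3.88, SE 0.13, adjusted p = 9.01e-10). A second CD24 probe was also lower (log2 -0.83).

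Components of the extracellular matrix and of adhesion were found here too. LAMA4, the laminin alpha4 chain of vessel and nerve basement membranes, was measured at 4.66, 4.60 and 4.36 in WT-v, 4.53, 4.48 and 4.29 in DoxR, 4.39, 4.39 and 4.47 in DoxR-v, and 7.60, 7.43 and 7.32 in WT. EGFLAM, or pikachurin, a ligand of dystroglycan at photoreceptor synapses, was measured at 4.62, 4.65 and 4.77 in WT-v, 4.44, 4.54 and 4.41 in DoxR, 4.44, 4.57 and 4.49 in DoxR-v, and 7.72, 7.90 and 7.42 in WT. Both were detected on the 3 WT arrays and on none of the others, with bounds of 4.53-fold and 5.34-fold (joint log2 -2.98 and -3.13). ICAM2, an adhesion molecule and integrin ligand, was detected on all arrays, at 7.80, 7.74 and 7.85 in WT-v, 7.94, 7.96 and 8.11 in DoxR, 8.12, 8.22 and 8.34 in DoxR-v, and 10.81, 10.81 and 10.70 in WT, and was 6.80-fold lower (log2 -2.77, SE 0.09, adjusted p = 9.01e-10).

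The genes in these paragraphs were ranked by the smallest of their 3 differences from WT, so a gene with a larger mean difference but 1 line close to WT is not among them. Of the remaining lower genes by this rank, PGAM2, the muscle form of phosphoglycerate mutase, was 11.9-fold lower, at 6.35 in WT-v, 6.90 in DoxR, 5.98 in DoxR-v and 9.98 in WT on average. HIGD1C, of the hypoxia-induced domain family, was 10.9-fold lower, at 6.51 in WT-v, 6.26 in DoxR, 6.80 in DoxR-v and 9.98 in WT. KBTBD11, a kelch-repeat protein, averaged 6.36 in WT-v, 5.78 in DoxR, 6.78 in DoxR-v and 9.39 in WT, an 8.48-fold difference. The cancer-testis gene CT55, on the X chromosome, was detected in WT alone, at 4.58, 4.43 and 4.35 in WT-v, 4.32, 4.30 and 4.27 in DoxR, 4.46, 4.85 and 4.70 in DoxR-v, and 7.80, 7.54 and 7.54 in WT, and was at least 5.14-fold lower. NPTX2, a neuronal pentraxin that clusters glutamate receptors, and MCTP1, a calcium-binding membrane protein, were likewise detected only in WT (joint log2 -2.45 and -2.44). The same was true of ISG15, which is described with the interferon-stimulated genes.

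The drug-exposed lines were also compared with each other. A moderated F test among WT-v, DoxR and DoxR-v, which uses no WT mean, called 403 of the 623 higher genes (64.7%) and 432 of the 648 lower genes (66.7%), against 64.5% of all genes and 58.2% of all probes tested, so the shares were near the background. DoxR and DoxR-v together were compared with WT-v as well, where 22.4% of all genes and 20.2% of all probes were called. Among the 623 higher genes 91 were higher (14.6%, against 11.4% of all genes) and 39 lower (6.26%, against 11%) in the doxorubicin-selected lines than in WT-v. Of the 648 lower genes, 63 were higher (9.72%) and 94 lower (14.5%).

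A smaller set had 3 drug-exposed means within 1.5-fold of each other and an adjusted p of 0.1 or more in the F test, which does not show that the lines were alike. It held 219 of the 623 higher genes (35.2%) and 210 of the 648 lower genes (32.4%). The F test alone made no call in 35.3% of the higher and 33.3% of the lower genes, and it called 64.5% of all genes. Nothing is therefore read from the size of this set. EPDR1, an ependymin-related lysosomal protein, led the higher ones. Its level was 8.94, 9.14 and 8.93 in WT-v, 8.75, 8.89 and 8.83 in DoxR, 9.17, 8.41 and 8.99 in DoxR-v, and 5.41, 5.94 and 6.36 in WT, a 7.94-fold difference (log2 2.99, SE 0.19, adjusted p = 1.1e-07), and the drug-exposed means spread over 0.18 on the log2 scale. APLNR, the receptor of the peptide apelin, was measured at 7.42, 7.70 and 7.66 in WT-v, 7.70, 7.84 and 7.78 in DoxR, 8.31, 7.32 and 7.07 in DoxR-v, and 5.55, 5.15 and 5.37 in WT and was 4.88-fold higher (log2 2.29, SE 0.20, adjusted p = 2.67e-06). JAG2, a Notch ligand, was measured at 8.14, 8.07 and 8.69 in WT-v, 7.90, 8.01 and 7.88 in DoxR, 8.68, 8.59 and 8.14 in DoxR-v, and 6.78, 5.21 and 6.08 in WT and was 4.63-fold higher (log2 2.21, SE 0.25, adjusted p = 2.46e-05). Its WT arrays spread over 1.57 log2 units and still lay below all others.

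WDR62, a spindle-pole protein needed for cortical neurogenesis, was 3.14-fold higher, the coatomer subunit gene COPG2 was 2.99-fold higher, and SLC39A8, a zinc and manganese importer, was 2.94-fold higher. With the values that the authors normalized, the WDR62 call was lost (log2 0.46). On the lower side stood EGFLAM, LAMA4, NPTX2, MCTP1, FGF13 and SNHG8. FGF13, an intracellular factor that binds sodium channels, was measured at 4.59, 4.45 and 4.35 in WT-v, 4.37, 4.73 and 4.40 in DoxR, 4.74, 4.79 and 4.34 in DoxR-v, and 7.20, 6.35 and 6.84 in WT, with detection in WT alone. SNHG8, a host gene of small nucleolar RNAs, was detected throughout, at 6.82, 7.15 and 6.99 in WT-v, 6.54, 6.86 and 7.05 in DoxR, 7.04, 6.62 and 7.47 in DoxR-v, and 9.25, 9.46 and 8.68 in WT, and was 4.54-fold lower (log2 -2.18, SE 0.19, adjusted p = 2.62e-06). With the values normalized by the authors, FGF13 (log2 -0.53), MCTP1 (-0.58) and NPTX2 (-0.58) kept their direction but missed the fold change of 1.5.

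Genes of the X chromosome were lower in the drug-exposed lines far more often than other genes. Of 439 X-linked genes tested, 144 were called lower (32.8%, against 9.83% of all genes) and 19 higher (4.33%, against 10.8%). Lower and not overlapping were 106 (24.1%, against 5.36%), so that X-linked genes made up 16.4% of the 648 lower genes but 3.63% of the genes tested. The median difference over the 439 genes was -0.31 on the log2 scale, against 0.03 over all genes. It was -0.40 in WT-v, -0.23 in DoxR and -0.40 in DoxR-v. Of the 439 genes, 314 had a joint difference below 0 (71.5%, against 46.5% on chromosomes 1 to 22).

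The X-linked level was steady between replicates. Relative to the mean of each gene over the 12 arrays, the median X-linked level was -0.19, -0.19 and -0.18 in WT-v, 0.03, 0.02 and 0.04 in DoxR, -0.16, -0.19 and -0.16 in DoxR-v, and 0.28, 0.29 and 0.29 in WT. All WT arrays thus lay above all others, with DoxR between. Among the 218 X-linked genes with a mean level above 7, the median difference was -0.51, and among the 221 dimmer ones -0.17. Scaling the arrays to one median in place of quantile normalization moved the median of all probes to 0.22 and that of X-linked genes to -0.08, which was 0.30 below the median of all probes (-0.303), and left 34 X-linked genes lower and not overlapping. With the values normalized by the authors there were 56.

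Along the chromosome, the X-linked genes were divided into 5 blocks of 87 or 88 genes. From the short-arm end, the median joint differences were -0.47, -0.43, -0.46, -0.30 and -0.12. In the fifth block the lines parted, at -0.04 in WT-v, 0.22 in DoxR and -0.41 in DoxR-v. Fewer genes were also lower and not overlapping there, 7 of 88, against 29 of 87 in the first block.

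Single X-linked genes, here chosen after their values were seen, show the range. PPEF1, a calcium-binding protein phosphatase gene, was measured at 4.50, 4.63 and 4.65 in WT-v, 4.29, 4.50 and 4.53 in DoxR, 7.03, 6.57 and 7.28 in DoxR-v, and 9.04, 8.76 and 8.95 in WT, with the largest difference after TCEAL7 (log2 -3.59). PCDH19, a protocadherin of the brain, was measured at 4.43, 4.36 and 4.48 in WT-v, 4.31, 4.32 and 4.49 in DoxR, 7.52, 7.32 and 6.96 in DoxR-v, and 8.34, 8.38 and 8.88 in WT. In both genes DoxR-v kept a clear signal while WT-v and DoxR were undetected. TBL1X, a subunit of the NCoR and SMRT corepressor complexes, was measured at 7.17, 7.64 and 7.40 in WT-v, 7.18, 7.43 and 7.29 in DoxR, 7.25, 7.26 and 7.23 in DoxR-v, and 9.06, 9.08 and 8.63 in WT, nearly level across the drug-exposed lines (log2 -1.61, SE 0.13, adjusted p = 9.91e-07). EBP, a sterol isomerase of cholesterol synthesis, was measured at 8.67, 9.08 and 8.96 in WT-v, 9.10, 9.04 and 8.94 in DoxR, 8.59, 8.71 and 8.84 in DoxR-v, and 10.25, 10.35 and 10.21 in WT (log2 -1.39, SE 0.11, adjusted p = 9.64e-07). Against this trend, CAPN6, a calpain family gene, was measured at 5.86, 5.69 and 5.88 in WT-v, 9.55, 9.38 and 9.44 in DoxR, 8.69, 8.33 and 8.41 in DoxR-v, and 5.37, 5.46 and 5.42 in WT, and MAOA, a monoamine oxidase, at 7.04 in WT-v, 8.36 in DoxR, 7.36 in DoxR-v and 6.09 in WT on average. Both were higher in the drug-exposed lines (log2 2.50 and 1.5).

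**Figure D3:**
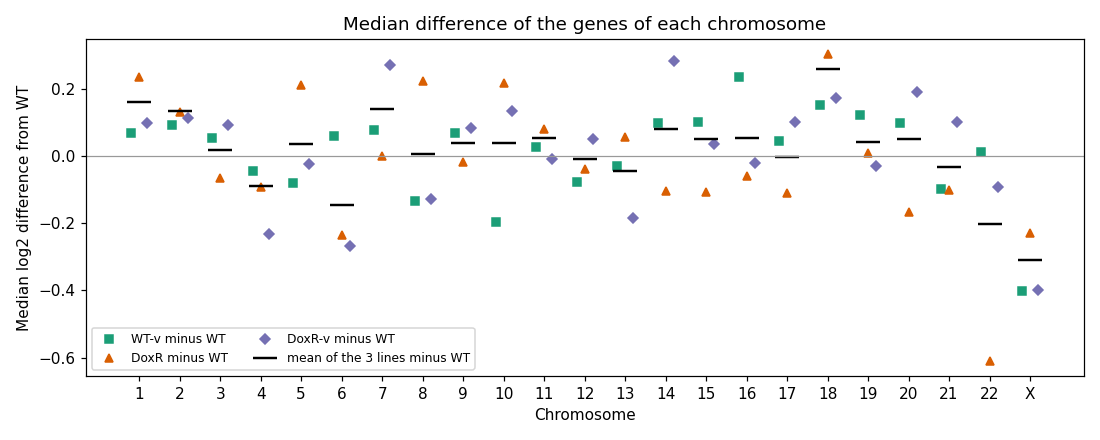
Median log2 difference from WT (y axis) over the tested genes of each chromosome (x axis), for WT-v (squares), DoxR (triangles), DoxR-v (diamonds) and the mean of the 3 lines (horizontal lines). X is the lowest joint median (-0.31) and lies below 0 in each line, whereas the median of chromosome 22 (-0.20) comes from DoxR (-0.61).

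Other chromosomes were shifted less or in 1 line only. On chromosome 22, 62 of 299 genes were lower (20.7%, against 9.83% of all genes) and 10 higher (3.34%, against 10.8%). The medians there were 0.01 in WT-v, -0.61 in DoxR and -0.09 in DoxR-v. On chromosome 18, 37 of 159 genes were higher (23.3%, against 10.8% of all genes) and 6 lower (3.77%, against 9.83%). The medians were 0.15 in WT-v, 0.30 in DoxR and 0.17 in DoxR-v. DNA copy number was not measured in these files.

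**Figure D4:**
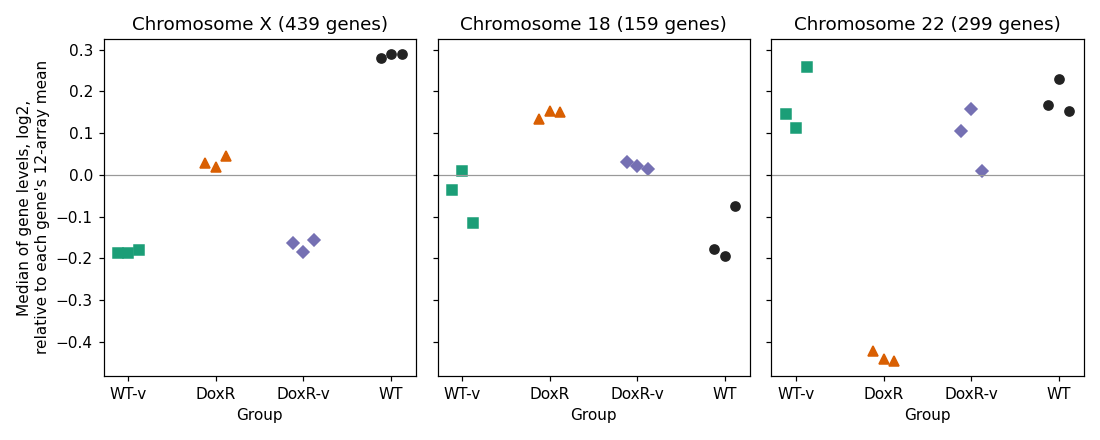
Median level of the tested genes of chromosomes X, 18 and 22 on each of the 12 arrays (y axis, log2, relative to the mean of each gene over the arrays), by group on the x axis in the order WT-v, DoxR, DoxR-v and WT. On X the 3 WT arrays (0.28 to 0.29) lie above all others, on 22 the DoxR arrays (-0.45 to -0.42) lie below all others, and on 18 WT replicate 3 (-0.08) lies above a WT-v array (-0.12).

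Cell type markers did not move as 1 group. Of 10 measured mesenchymal markers, 5 were higher (50%, against 10.8% of all genes) and 0 lower (against 9.83%), namely VIM, IGFBP3, CD44, COL3A1 and SNAI2. The median over the 10 was log2 0.83, against 0.03 over all genes. VIM and IGFBP3 did not overlap WT. CD44, a hyaluronan receptor, was undetected in WT-v and bright in the other derived lines, at 4.38 in WT-v, 10.39 in DoxR, 10.75 in DoxR-v and 7.27 in WT, so its joint difference (1.24) describes no single line. SNAI2, a repressor of epithelial genes, averaged 8.45 in WT-v, 9.63 in DoxR, 6.41 in DoxR-v and 7.05 in WT, and COL3A1, a fibrillar collagen chain, 6.72 in WT-v, 7.33 in DoxR, 4.42 in DoxR-v and 4.41 in WT. In both, DoxR-v did not share the rise of the remaining lines. COL1A1 and LUM were not called (log2 0.29 and 0.56), nor were PRRX1 (-0.38), TNC (-0.25) and TWIST1 (-0.53).

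Of 13 adrenergic markers, 2 were higher (15.4%, against 10.8% of all genes), 3 were lower (23.1%, against 9.83%) and 8 were not called (median 0.08). ELAVL4, a neuronal RNA-binding protein, was higher in each line, at 9.72, 9.43 and 9.78 in WT-v, 9.64, 9.59 and 9.59 in DoxR, 9.64, 9.38 and 9.53 in DoxR-v, and 8.71, 8.55 and 8.62 in WT (log2 0.97, SE 0.10, adjusted p = 1.67e-05). INSM1, a zinc-finger factor of neuroendocrine progenitors, was lower, at 5.08, 5.38 and 5.44 in WT-v, 5.64, 5.98 and 5.63 in DoxR, 5.28, 5.17 and 4.88 in DoxR-v, and 7.92, 6.24 and 6.38 in WT, with WT replicate 1 far above its fellows (log2 -1.47, SE 0.27, adjusted p = 0.00109). HAND2, a core factor of sympathetic identity, was lower on average (log2 -0.97) but overlapped WT in WT-v. DBH and TH, enzymes of noradrenaline synthesis, varied by line, with DBH at 12.00 in WT-v, 8.64 in DoxR, 12.81 in DoxR-v and 12.59 in WT and TH at 13.11 in WT-v, 4.53 in DoxR, 13.08 in DoxR-v and 7.73 in WT. PHOX2A (0.43), GATA3 (0.05) and STMN2 (-0.10) were not called.

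Of 30 measured genes of mitosis and DNA replication, 9 were higher (30%, against 10.8% of all genes), 0 were lower (against 9.83%) and 21 were not called, with a median of 0.40. At an unadjusted p below 0.05, 21 were higher and 1 was lower, against 27.1% and 23.2% of all genes. MKI67, the proliferation antigen, was measured at 7.01, 6.29 and 7.07 in WT-v, 6.99, 6.89 and 6.97 in DoxR, 6.85, 6.64 and 6.91 in DoxR-v, and 5.85, 6.05 and 6.09 in WT, a 1.80-fold difference (log2 0.85, SE 0.15, adjusted p = 0.000773). CENPF, a kinetochore protein, averaged 10.95 in WT-v, 10.97 in DoxR, 10.19 in DoxR-v and 9.86 in WT (log2 0.85, SE 0.09, adjusted p = 1.92e-05), nearest to WT in DoxR-v. BUB1, a spindle checkpoint kinase, was 1.66-fold higher, and TYMS, the enzyme that makes thymidylate, 1.54-fold. KIF11, MCM2, MCM4, RRM2 and TTK were called but overlapped WT. WT replicate 3 was the highest WT array in 8 of the 9 genes. Without it 13 members were higher, and without WT replicate 1 the number was 5, with 0 lower in either case. Under median scaling 15 were higher, but there 87% of all called probes were higher, against 51.7% in the main processing, so nothing is read from the larger number. With the values normalized by the authors 5 were higher, where 397 probes in all were called higher, against 2098.

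Of 11 measured cell cycle inhibitors and cyclins, 4 were lower (36.4%, against 9.83% of all genes) and 0 higher (against 10.8%). CDKN1A, which encodes p21, was measured at 5.70, 5.81 and 5.78 in WT-v, 6.10, 6.11 and 5.62 in DoxR, 9.12, 8.82 and 9.11 in DoxR-v, and 10.31, 10.04 and 10.34 in WT, a 10.0-fold difference (log2 -3.32, SE 0.13, adjusted p = 2e-09), and was least reduced in DoxR-v. CDKN2A, which encodes p16 and p14ARF, was measured at 6.24, 6.86 and 6.59 in WT-v, 9.04, 9.42 and 9.64 in DoxR, 6.15, 5.97 and 6.61 in DoxR-v, and 10.39, 10.68 and 9.66 in WT (log2 -2.85, SE 0.21, adjusted p = 5.99e-07). Its reduction was small in DoxR, where the highest array was separated from the lowest WT array by 0.03. CCND3, a D-type cyclin, was 1.72-fold lower, and CCNE1 overlapped WT. Of 19 p53 target genes, 2 were higher (XPC, log2 1.07, and GADD45A, 0.63) and 3 were lower (CDKN1A, SESN1, -1.09, and the death receptor gene TNFRSF10B, -1.32). All 5 did not overlap WT. The shares of p53 target genes called were 10.5% higher and 15.8% lower, against 10.8% and 9.83% of all genes. XPC, a DNA damage sensor, was uniform in the drug-exposed lines, at 8.40, 8.25 and 8.44 in WT-v, 8.42, 8.35 and 8.47 in DoxR, 8.39, 8.50 and 8.43 in DoxR-v, and 7.11, 7.24 and 7.67 in WT.

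To show the sequence that lies before genes described from the mitotic, interferon and HIF lists, promoter windows of 300 bases were taken from RefSeq (GRCh38.p14), from 250 bases before to 50 after the start, for 9680 of the 12093 genes. MKI67 and CENPF stand for the mitotic genes. The CCAAT box, the binding letters of the factor NF-Y, was searched as CCAAT on both strands and is in capitals, as CCAAT or its reverse complement ATTGG. MKI67 lies at chr10:128126374-128126673 on the minus strand and CENPF at chr1:214602945-214603244 on the plus strand, and each is printed 5′ to 3′.
MKI67: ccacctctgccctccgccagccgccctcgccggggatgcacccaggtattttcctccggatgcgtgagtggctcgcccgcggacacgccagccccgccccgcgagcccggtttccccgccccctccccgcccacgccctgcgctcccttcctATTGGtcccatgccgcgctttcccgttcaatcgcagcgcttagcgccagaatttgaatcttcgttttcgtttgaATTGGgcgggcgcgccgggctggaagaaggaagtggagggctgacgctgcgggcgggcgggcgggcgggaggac
CENPF: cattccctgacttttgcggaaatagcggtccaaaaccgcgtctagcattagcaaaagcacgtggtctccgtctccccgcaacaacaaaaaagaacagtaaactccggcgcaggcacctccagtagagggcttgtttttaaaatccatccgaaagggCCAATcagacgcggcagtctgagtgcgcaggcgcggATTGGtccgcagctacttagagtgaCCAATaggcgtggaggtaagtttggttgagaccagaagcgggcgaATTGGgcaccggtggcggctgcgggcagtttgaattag
MKI67 had 2 and CENPF 4 matches. The box was in 21 of 25 windows of the mitotic list (84%), in 37.3% of the tested genes and in 35.7% of all windows. It was in 38.7% of windows of the higher and 37.1% of windows of the lower genes that did not overlap WT, so the members as a whole did not stand out. A match describes letters only and shows no binding.

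Of 18 measured interferon-stimulated genes, 5 were lower (27.8%, against 9.83% of all genes), 2 higher (11.1%, against 10.8%) and 11 not called (median -0.36), whereas median scaling gave 3 lower and 3 higher, and the values normalized by the authors 1 lower and 1 higher. ISG15, a ubiquitin-like modifier, was measured at 4.99, 4.93 and 4.88 in WT-v, 4.50, 4.74 and 4.67 in DoxR, 4.60, 4.43 and 4.52 in DoxR-v, and 7.18, 7.61 and 6.95 in WT. It was detected on the WT arrays alone and was at least 3.95-fold lower (log2 -2.55, SE 0.13, adjusted p = 1.48e-08). OAS1, which senses double-stranded RNA, was measured at 5.82, 6.22 and 6.12 in WT-v, 5.14, 5.43 and 5.28 in DoxR, 5.25, 5.06 and 4.98 in DoxR-v, and 6.98, 7.23 and 7.12 in WT (log2 -1.63, SE 0.12, adjusted p = 4.46e-07), and ISG20, an antiviral exonuclease, at 5.72, 5.91 and 5.26 in WT-v, 4.90, 4.83 and 5.01 in DoxR, 4.83, 5.18 and 5.22 in DoxR-v, and 6.89, 6.91 and 6.57 in WT (log2 -1.59, SE 0.14, adjusted p = 3.54e-06). All 3 OAS1 probes were lower. IFI6, a mitochondrial antiviral protein, was bright everywhere, at 8.21, 8.95 and 8.31 in WT-v, 9.12, 9.24 and 9.13 in DoxR, 9.22, 9.25 and 9.27 in DoxR-v, and 9.73, 9.82 and 9.37 in WT, and only 1.59-fold lower, with the second IFI6 probe not called. IFI16, a DNA sensor, was higher in the doxorubicin-selected lines alone, at 4.97 in WT-v, 9.37 in DoxR, 8.75 in DoxR-v and 4.86 in WT, and IFIT1 had a like pattern, at 5.23 in WT-v, 6.26 in DoxR, 6.21 in DoxR-v and 5.13 in WT. Of 9 measured MHC class I presentation genes, 0 were called by limma, and at an unadjusted p below 0.05, 1 was higher and 2 were lower, against 27.1% and 23.2% of all genes.

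The interferon-stimulated response element (ISRE), the site of interferon-activated factors, was searched as GAAA, any 2 bases and GAAA again, on both strands. ISG15 lies at chr1:1013247-1013546 on the plus strand and IFI6 at chr1:27672143-27672442 on the minus strand, and the matches are in capitals.
ISG15: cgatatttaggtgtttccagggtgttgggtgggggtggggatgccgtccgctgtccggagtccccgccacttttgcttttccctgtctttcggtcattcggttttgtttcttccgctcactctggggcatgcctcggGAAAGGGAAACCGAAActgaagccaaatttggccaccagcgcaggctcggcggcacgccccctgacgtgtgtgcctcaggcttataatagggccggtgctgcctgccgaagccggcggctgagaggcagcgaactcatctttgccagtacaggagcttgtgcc
IFI6: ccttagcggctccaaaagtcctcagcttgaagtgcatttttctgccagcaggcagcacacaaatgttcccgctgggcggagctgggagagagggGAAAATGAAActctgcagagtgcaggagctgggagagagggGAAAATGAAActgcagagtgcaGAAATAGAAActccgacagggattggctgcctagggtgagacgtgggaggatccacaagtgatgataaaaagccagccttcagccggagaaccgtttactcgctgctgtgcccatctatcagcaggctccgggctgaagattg
The ISG15 window held 2 overlapping matches and the IFI6 window 3. The motif was in 10 of 15 windows of the interferon list, among them those of 3 of the 5 lower genes (ISG15, ISG20 and IFI6) and of IFIT1, which was higher. It was in 2.55% of the tested genes, 2.27% of the lower and 1.33% of the higher genes that did not overlap WT, and 3.65% of all windows.

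Of 20 measured HIF target genes, which respond to low oxygen, 9 were lower (45%, against 9.83% of all genes), 3 higher (15%, against 10.8%) and 8 not called (median -0.47), under median scaling 6 were lower and 4 higher, and with the values normalized by the authors 2 were lower and 1 higher. NDRG1, a stress-induced gene, was measured at 4.78, 4.70 and 4.53 in WT-v, 5.43, 5.36 and 5.71 in DoxR, 4.68, 4.53 and 5.30 in DoxR-v, and 8.99, 6.90 and 7.29 in WT (log2 -2.72, SE 0.33, adjusted p = 3.98e-05). With WT-v raised for the bound, NDRG1 was 5.81-fold lower. DoxR-v, with NDRG1 detected on 1 array, kept its mean, so this value is not a strict lower limit. ADM, the vasodilator adrenomedullin, was measured at 6.62, 6.75 and 6.85 in WT-v, 6.94, 6.28 and 6.52 in DoxR, 5.64, 6.70 and 6.49 in DoxR-v, and 8.63, 7.18 and 7.10 in WT, and MXI1, a MYC antagonist, at 5.57, 5.93 and 5.95 in WT-v, 6.06, 6.02 and 6.13 in DoxR, 5.82, 6.18 and 5.51 in DoxR-v, and 7.18, 6.66 and 6.58 in WT. DDIT4, an inhibitor of mTOR signalling, was measured at 10.34, 9.99 and 10.48 in WT-v, 9.85, 9.65 and 9.78 in DoxR, 9.81, 9.81 and 9.97 in DoxR-v, and 11.31, 10.54 and 10.59 in WT (log2 -0.85, SE 0.16, adjusted p = 0.00111). VEGFA (-1.36) and the phosphofructokinase-2 gene PFKFB4 (-1.30) were called but overlapped WT. WT replicate 1 was the highest WT array in all 9 lower genes, and without it 7 were lower and 3 higher. PFKFB3 was below WT in WT-v and above it in the doxorubicin-selected lines, at 6.70 in WT-v, 9.40 in DoxR, 9.58 in DoxR-v and 7.56 in WT, and LOX, a collagen crosslinking enzyme, was higher but weak (0.70).

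The core of the hypoxia response element was searched as ACGTG or GCGTG on both strands. DDIT4 lies at chr10:72273674-72273973 and ADM at chr11:10304823-10305122, both on the plus strand, with the matches in capitals.
DDIT4: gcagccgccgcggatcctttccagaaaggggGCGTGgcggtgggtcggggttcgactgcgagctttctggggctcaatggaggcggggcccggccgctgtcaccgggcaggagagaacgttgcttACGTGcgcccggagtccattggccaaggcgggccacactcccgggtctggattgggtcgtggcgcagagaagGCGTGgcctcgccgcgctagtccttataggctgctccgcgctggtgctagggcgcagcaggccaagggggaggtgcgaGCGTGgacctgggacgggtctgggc
ADM: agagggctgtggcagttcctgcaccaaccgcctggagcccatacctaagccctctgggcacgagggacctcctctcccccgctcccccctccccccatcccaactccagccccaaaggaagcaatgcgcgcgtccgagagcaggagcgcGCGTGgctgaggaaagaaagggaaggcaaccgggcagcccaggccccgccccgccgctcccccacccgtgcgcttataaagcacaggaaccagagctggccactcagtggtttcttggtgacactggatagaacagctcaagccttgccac
DDIT4 had 4 matches and ADM 1. These short letters are common. They were in 14 of 17 windows of the HIF list (82.4%) and in 63.3% of the tested genes, 65.4% of the lower and 67.2% of the higher genes that did not overlap WT, and 48.4% of all windows.

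**Figure D5:**
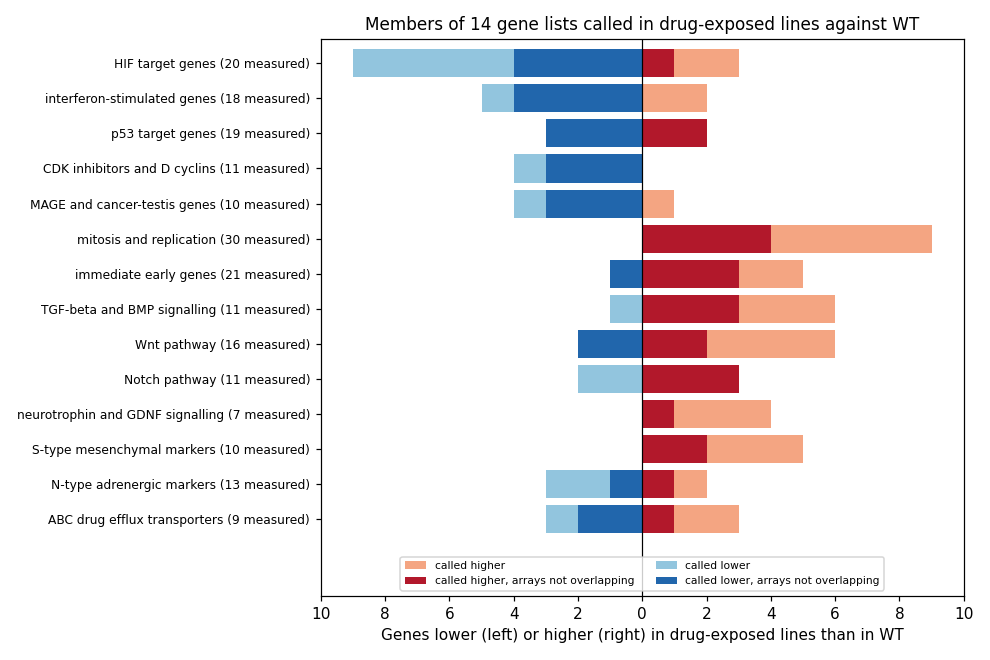
Number of members of 14 gene lists called lower (blue, left) or higher (red, right) in the drug-exposed lines than in WT (x axis), with the part whose WT arrays did not overlap the 9 others in the darker shade and the number measured beside each list (y axis). The HIF list extends farthest to the left (9 of 20) and the mitosis and replication list farthest to the right (9 of 30).

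Of 11 TGF-beta and BMP genes, 6 were higher (54.5%, against 10.8% of all genes) and 1 lower (9.09%, against 9.83%), with a median of 0.60. The values normalized by the authors called none of them. TGFBR2, the type II receptor, was measured at 5.73, 5.81 and 5.60 in WT-v, 6.49, 6.47 and 6.48 in DoxR, 8.0, 7.96 and 6.96 in DoxR-v, and 4.72, 4.67 and 4.71 in WT, undetected in WT and at least 2.30-fold higher (log2 1.91, SE 0.18, adjusted p = 4.52e-06). SMAD3, which carries the signal to the nucleus, was measured at 7.58, 7.32 and 7.40 in WT-v, 7.76, 7.64 and 7.51 in DoxR, 7.45, 7.38 and 7.45 in DoxR-v, and 6.19, 6.51 and 6.50 in WT (log2 1.10, SE 0.11, adjusted p = 6.91e-06), and TGFB3, a ligand, averaged 6.66 in WT-v, 8.03 in DoxR, 7.36 in DoxR-v and 6.15 in WT. BMP7, a ligand of the BMP branch, was undetected in WT-v and DoxR-v, with means of 4.47 in WT-v, 6.34 in DoxR, 4.52 in DoxR-v and 6.55 in WT. The target genes ID1 (-0.37), ID2 (0.11) and ID3 (-0.18) were not called.

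Of 16 Wnt pathway genes, 6 were higher (37.5%, against 10.8% of all genes) and 2 lower (12.5%, against 9.83%), with a median of 0.27. With the values normalized by the authors, 2 were higher and 1 lower. DKK1, a secreted antagonist, was measured at 9.30, 9.66 and 9.49 in WT-v, 10.92, 11.02 and 10.95 in DoxR, 9.76, 10.21 and 9.88 in DoxR-v, and 8.41, 7.54 and 7.75 in WT, a 4.71-fold difference (log2 2.24, SE 0.16, adjusted p = 5.25e-07), although a second DKK1 probe was not called (log2 0.49). DKK3, a related secreted protein, ran the other way, at 8.20, 8.52 and 8.28 in WT-v, 8.56, 8.66 and 8.45 in DoxR, 8.63, 8.65 and 8.33 in DoxR-v, and 9.89, 9.74 and 9.47 in WT (log2 -1.22, SE 0.12, adjusted p = 8.54e-06), on both of its probes. LGR5, the R-spondin receptor, was 2.91-fold higher, and LEF1, a nuclear effector, was above WT in WT-v and DoxR but below it in DoxR-v, at 8.46 in WT-v, 9.0 in DoxR, 4.46 in DoxR-v and 5.70 in WT. In the Notch list 3 of 11 were higher (27.3%, against 10.8%) and 2 lower (18.2%, against 9.83%). JAG2 was joined there by the target gene HES1 (log2 1.12) and the receptor gene NOTCH3 (0.99). NOTCH3 was detected on no DoxR or WT array and was not called in DoxR, with log2 differences of 1.40 in WT-v, 0.35 in DoxR and 1.21 in DoxR-v. Of the lower Notch genes, DLK1 was low in DoxR alone, with log2 differences of -0.14 in WT-v, -5.66 in DoxR and 0.19 in DoxR-v. Of 7 neurotrophin and GDNF genes, 4 were higher (57.1%, against 10.8% of all genes) and 0 lower (against 9.83%), namely BDNF, GFRA3, NRTN and RET. BDNF alone did not overlap WT. GFRA3 was called in WT-v only, with log2 differences of 1.56 in WT-v, 0.05 in DoxR and 0.58 in DoxR-v. RET differed by -0.485 in WT-v, 1.76 in DoxR and 0.75 in DoxR-v, and no other RET probe was called.

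Immediate early genes are induced within minutes of a stimulus. Of 21 measured, 5 were higher (23.8%, against 10.8% of all genes) and 1 was lower (4.76%, against 9.83%). EGR1 averaged 9.08 in WT-v, 8.77 in DoxR, 9.08 in DoxR-v and 8.20 in WT (log2 0.77, SE 0.12, adjusted p = 0.000247), and ARC averaged 6.49 in WT-v, 6.68 in DoxR, 6.77 in DoxR-v and 5.87 in WT. FOS was measured at 5.03, 5.02 and 5.60 in WT-v, 7.44, 6.65 and 6.27 in DoxR, 5.73, 5.61 and 5.30 in DoxR-v, and 4.68, 4.40 and 4.90 in WT, weakly except in DoxR. ATF3, a stress-induced repressor, was lower, at 7.63, 7.86 and 7.75 in WT-v, 7.32, 7.22 and 7.19 in DoxR, 7.49, 7.29 and 7.32 in DoxR-v, and 8.22, 8.26 and 8.21 in WT (log2 -0.78, SE 0.10, adjusted p = 4.81e-05). The values normalized by the authors called 1 of the 21 higher and 0 lower.

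Secreted peptides went both ways. Of 15 neuropeptide and granin genes, 4 were higher (26.7%, against 10.8% of all genes) and 3 lower (20%, against 9.83%). VIP, a peptide of autonomic neurons, was measured at 12.09, 12.39 and 11.84 in WT-v, 12.99, 13.03 and 12.94 in DoxR, 12.19, 12.00 and 11.92 in DoxR-v, and 10.94, 10.96 and 11.11 in WT (log2 1.37, SE 0.12, adjusted p = 2.44e-06). SCG2, a granin of dense-core vesicles, was measured at 12.00, 12.14 and 11.94 in WT-v, 11.89, 11.93 and 11.97 in DoxR, 12.38, 12.06 and 11.81 in DoxR-v, and 12.96, 12.76 and 13.20 in WT (log2 -0.96, SE 0.13, adjusted p = 0.000103), and SCG5, a chaperone of prohormone convertase, at 7.31, 7.58 and 7.09 in WT-v, 8.44, 8.36 and 8.32 in DoxR, 11.28, 10.99 and 11.30 in DoxR-v, and 11.82, 11.62 and 11.83 in WT (log2 -2.79, SE 0.12, adjusted p = 4.66e-09). IGFBP7, which binds insulin-like growth factors, was lower, at 6.56, 6.98 and 6.98 in WT-v, 7.49, 7.11 and 7.32 in DoxR, 8.87, 8.84 and 9.36 in DoxR-v, and 10.18, 10.41 and 10.17 in WT (log2 -2.53, SE 0.14, adjusted p = 5.08e-08), opposite to IGFBP3. IRS1, an insulin receptor substrate, was 2.26-fold higher, and IGF2R, which clears IGF2, was 1.69-fold lower.

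Cell surface adhesion genes included CDH10, a neuronal cadherin, at 9.22, 9.25 and 9.06 in WT-v, 9.92, 9.86 and 9.82 in DoxR, 10.62, 10.29 and 10.24 in DoxR-v, and 8.83, 8.87 and 8.82 in WT (log2 0.97, SE 0.10, adjusted p = 1.59e-05), and CDH6, at 5.67 in WT-v, 9.10 in DoxR, 5.14 in DoxR-v and 4.56 in WT, of which the difference came mostly from DoxR. Of 13 integrins and cadherins measured, 4 were higher (30.8%, against 10.8% of all genes) and 0 lower (against 9.83%). The collagen gene COL4A1 was high in DoxR alone, at 4.68 in WT-v, 8.71 in DoxR, 4.69 in DoxR-v and 4.43 in WT, and passed the non-overlap rule with a gap of 0.01. The heat shock cochaperone BAG3 was 4.87-fold lower, at 6.06, 6.23 and 5.82 in WT-v, 7.91, 7.65 and 7.79 in DoxR, 7.43, 7.74 and 6.73 in DoxR-v, and 9.31, 9.45 and 9.20 in WT (log2 -2.28, SE 0.17, adjusted p = 7.28e-07), whereas DNAJB1 was 1.59-fold higher. These were the only members called of 15 heat shock genes (6.67% higher, against 10.8% of all genes, and 6.67% lower, against 9.83%).

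Of 10 measured MAGE and cancer-testis genes, 4 were lower (40%, against 9.83% of all genes) and 1 was higher (10%, against 10.8%). MAGEH1, MAGED1, MAGED2 and MAGEB2 are X-linked, and 32.8% of all X-linked genes tested were called lower, so the list is not separate from the X-linked result. MAGEH1 was measured at 6.71, 6.92 and 7.19 in WT-v, 6.19, 6.22 and 5.89 in DoxR, 7.43, 7.16 and 7.39 in DoxR-v, and 8.17, 8.31 and 8.08 in WT (log2 -1.40, SE 0.12, adjusted p = 3.09e-06), and MAGED1 and MAGED2 were lower by less (log2 -0.65 and -0.76). The second MAGEH1 probe and the remaining MAGED2 probes were not called. MAGEB2 was detected in WT-v alone, at 10.30 in WT-v, 4.54 in DoxR, 4.45 in DoxR-v and 4.57 in WT.

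Genes of drug handling were mixed. Of 9 measured ABC transporters, 3 were higher (33.3%, against 10.8% of all genes) and 3 lower (33.3%, against 9.83%). ABCB1, which encodes P-glycoprotein, was measured at 10.41, 10.34 and 10.47 in WT-v, 12.25, 12.14 and 12.05 in DoxR, 11.20, 11.24 and 10.90 in DoxR-v, and 9.90, 9.89 and 10.38 in WT, and its joint difference (log2 1.17, SE 0.12, adjusted p = 1.57e-05) was graded by line, with log2 differences of 0.35 in WT-v, 2.09 in DoxR and 1.05 in DoxR-v. The ranges overlapped, since the highest WT array lay 0.04 above the lowest WT-v array. ABCC5, an exporter of nucleotide analogues, lay below WT by a gap of 0.02, at 9.06, 8.95 and 9.33 in WT-v, 8.35, 8.48 and 8.59 in DoxR, 7.89, 7.66 and 7.40 in DoxR-v, and 9.34, 9.50 and 9.46 in WT, and 1 of its 2 other probes was also lower. ABCC9, a regulatory subunit of potassium channels, was measured at 7.36, 7.48 and 7.15 in WT-v, 4.59, 4.99 and 4.41 in DoxR, 6.18, 6.20 and 6.48 in DoxR-v, and 8.95, 8.65 and 8.51 in WT (log2 -2.61, SE 0.14, adjusted p = 3.38e-08), with 1 further probe not called. ABCA2 was 1.94-fold higher. NQO1, a quinone reductase, was 2.24-fold higher, TOP2B, a target of doxorubicin, 1.66-fold higher, and the glutathione transferase gene MGST2 2.98-fold lower, all 3 without overlap. NQO1 was not called in WT-v (log2 0.50). Of 12 anthracycline targets and reductases, 2 were higher (16.7%, against 10.8%) and 1 lower (8.33%, against 9.83%), namely TDP1, which overlapped WT. Of 27 antioxidant and glutathione genes, 3 were higher (11.1%) and 2 lower (7.41%), among them GPX4, higher, and GPX3, lower with overlap.

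Of the remaining genes that the study names, BDNF, a neurotrophin, was measured at 5.80, 6.14 and 5.36 in WT-v, 9.37, 9.24 and 9.25 in DoxR, 8.59, 8.64 and 8.43 in DoxR-v, and 4.93, 4.49 and 4.66 in WT, at least 5.50-fold higher (log2 3.17, SE 0.15, adjusted p = 8.08e-09), while neither of its 2 other probes was called. EPAS1 was called (log2 0.86) but overlapped WT, with means of 8.16 in WT-v, 7.02 in DoxR, 9.02 in DoxR-v and 7.20 in WT. TH, SST and CALD1 were called as well, and in each the lines went apart. SST was detected in DoxR-v alone, at 4.44 in WT-v, 4.59 in DoxR, 9.95 in DoxR-v and 4.51 in WT, and CALD1, an actin regulator, was low there only, at 9.81 in WT-v, 10.67 in DoxR, 6.65 in DoxR-v and 10.23 in WT. BCL2 (log2 0.29), GSTP1 (-0.45), PON2 (0.50) and SIRT1 (0.48) were not called in the joint contrast, although a second PON2 probe was called higher (log2 0.79). For these genes the mean of 3 lines hides the single lines, and only ABCC5, ABCC9 and BDNF of the 12 met the non-overlap rule.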

How the data were processed

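RNA from 12 SK-N-SH specimens (4 groups of 3) was hybridised to Illumina HumanHT-12 v4 beadchips, 1 array each. The authors deposited a non-normalized table with an intensity and a detection p-value for each of 47323 probes per array, and a table of normalized intensity values of the same arrays, on a linear scale and put on log2 here. The submitters' processing notes name lumi 2.13.3 and R 3.0.1. The chip that held each array is not given in the sources used here, so it could not be fitted as a block. The number of arrays limits the precision.

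Intensities were background-corrected and quantile-normalized with neqc in limma 3.58.1 (R 4.3.3), offset 16, and reported as log2. A probe entered the tests when its detection p-value was under 0.01 on 1 or more arrays (21609 probes). The platform annotation gave 1 gene symbol to 30113 probes, several to 8 and no symbol here to 17202. By Entrez identifier, 30074 were matched to current genes. Each gene was represented by its brightest tested probe. A limma fit over the 4 groups with eBayes gave the joint contrast (drug-exposed minus WT), each line minus WT, the doxorubicin-selected lines minus WT-v and an F test among the 3 lines. A call needed a Benjamini-Hochberg adjusted p below 0.1 over all probes tested and a fold change above 1.5. The scripts were tested on simulated data.

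Genes named were the 12 each way with the largest smallest difference over the 3 lines among calls without overlap, the 6 each way with the largest joint difference among those with drug-exposed means within 1.5-fold and no F test call, up to 4 members of each of 40 gene lists (535 of 693 members measured), 12 genes that the study names and 4 at the border of the non-overlap rule. Further list members and X-linked genes were chosen after their values were seen. The genes and lists were chosen with earlier results of these data known. Promoter windows came from RefSeq (GRCh38.p14). Alternatives were the log2 signal without background correction, median scaling, the normalized values of the authors, other detection filters, array weights, the mean of a gene's probes, a replicate block, and leaving out each array or line.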

Additional observations from a re-analysis of the deposited data

Results flagged for a closer look

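In 9 genes that the report names or that the naming rule chose, the lines were called in opposite directions against the same WT arrays, and the F test among the 3 drug-exposed lines passed for each. Such calls were found in 364 of the 12093 genes tested (3.01%) and in 34 of the 535 list members (6.36%). TH differed from WT by 5.38 on the log2 scale in WT-v, -3.20 in DoxR and 5.35 in DoxR-v. MSN, which encodes the membrane linker moesin, differed by 4.22 in WT-v, -0.69 in DoxR and 3.44 in DoxR-v. CD44 differed by -2.89 in WT-v, 3.12 in DoxR and 3.48 in DoxR-v. GPX3, a secreted glutathione peroxidase, differed by -1.41 in WT-v, -2.68 in DoxR and 0.75 in DoxR-v. KRT19, a keratin, differed by -1.28 in WT-v, -1.27 in DoxR and 0.61 in DoxR-v. LEF1 differed by 2.76 in WT-v, 3.30 in DoxR and -1.24 in DoxR-v, and SNAI2 by 1.40 in WT-v, 2.57 in DoxR and -0.65 in DoxR-v. PFKFB3 differed by -0.86 in WT-v, 1.84 in DoxR and 2.03 in DoxR-v. LUM, a small proteoglycan, differed by 0.96 in WT-v, -1.99 in DoxR and 2.70 in DoxR-v. For these genes the joint contrast averages differences of opposite sign. No cause was tested.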

How the results depend on the processing

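Counts below are of probes unless stated, and the cause of each shift was not tested. The log2 signal without background correction called 1638 probes in the joint contrast (4055 in the report), 1023 of them without overlap (1933 in the report), 2488 in WT-v vs WT, 3295 in DoxR vs WT, 2195 in DoxR-v vs WT and 1991 in the doxorubicin-selected lines vs WT-v. Against the other 3 groups, 1036 were apart in WT-v, 2064 in DoxR and 925 in DoxR-v. With the authors' normalized values, the same 9 counts were 929, 625, 1507, 2072, 1323, 1219, 680, 1364 and 556, and 56 X-linked genes were lower without overlap, against 34 under median scaling. Calls that were higher made up 51.7% in the report, 87% under median scaling (4921 higher and 734 lower, with a median of all probes at 0.22), 45.3% without background correction and 42.7% with the authors' values. In the joint contrast without the WT-v line 3114 probes did not overlap WT, and without the DoxR-v line 3068, each against fewer arrays. Among named genes called in the report or under the alternative, signs turned for MAGEB2 (-0.072 without the WT-v line), DLK1 (0.025 without the DoxR line), CALD1 (0.009) and ITGA6 (-0.031, both without the DoxR-v line). Sign changes in genes called in neither setting were not listed.

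Leaving out 1 array at a time gave 3797 to 5441 calls in the joint contrast and 1966 to 3663 without overlap, highest without WT replicate 3 in both. The ranges were 4936 to 6510 for WT-v vs WT, 6204 to 7367 for DoxR vs WT, 4616 to 5806 for DoxR-v vs WT, 4105 to 4924 for the doxorubicin-selected lines vs WT-v and 11443 to 13089 for the F test. Against the other 3 groups they were 1925 to 3096 for WT-v (3096 without WT-v replicate 2), 3316 to 3644 for DoxR and 1692 to 1995 for DoxR-v, and for X-linked genes 102 to 121. With the replicate number as a block, 4054 probes were called and 1933 did not overlap. Deviations of same-numbered arrays correlated at -0.325 to 0.167 over 18 pairs, and 2 of 12 arrays were closest to their own number. No pairing was therefore read from the numbers. Whether same-numbered arrays shared a chip or batch was not tested, since the chip of each array is not given. The counts for each group against the other 3 and for X-linked genes were added after the data were seen. Of the named genes, 24 were chosen by their smallest difference over the lines, and 12 by drug-exposed means within 1.5-fold and no F test call. All of these stayed called and without overlap under every alternative except the authors' values, where 22 and 8 did. Over the named genes and list counts, 4713 of the values under an alternative were classed as unchanged. For genes this meant the same direction and side of the threshold, or no call in either setting whatever the sign. For counts it meant staying within 1.5 times. Of the rest, 198 lost the call, 11 gained it, 248 counts moved and 4 reversed in genes called in either setting.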
